A study of Homo sapiens with 36 samples.

Results

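The 42 genes described here are targets and components of 2 linked stress programs, the ATF4 arm of the integrated stress response and the unfolded protein response of the endoplasmic reticulum (ER). They were taken as a named list, without use of the measured values, from 60725 Ensembl genes in the deposited tables, and all 42 were found. By role they comprised 5 transcription factors of the ATF4 arm, 5 feedback and stress targets, 8 amino acid and one-carbon enzymes, 4 amino acid transporters, 5 tRNA synthetases, 2 ER stress factors, 9 ER chaperones and 4 genes of ER-associated degradation.

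When amino acids run short or unfolded proteins collect in the ER, kinases phosphorylate the initiation factor eIF2, general translation falls and the ATF4 mRNA is translated more efficiently. ATF4 then activates genes for amino acid synthesis, amino acid import and tRNA charging. In parallel the ER sensors IRE1 and ATF6 act through spliced XBP1 and cleaved ATF6 to raise chaperones such as HSPA5 (BiP) and the machinery that removes misfolded proteins. Gene-level RNA values do not separate spliced from unspliced XBP1 and do not measure translation of ATF4.

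RNA was sequenced from 36 libraries of 2 human breast cell lines, with 2 libraries in each of 18 groups. The first line was MCF-10A ER-Src, a non-transformed mammary epithelial line carrying a fusion of the estrogen receptor ligand-binding domain and the v-Src oncoprotein. Its cells received ethanol (ETH, non-transformed) or tamoxifen with AZD0530, a Src-family kinase inhibitor, which the labels describe as the transforming treatment (TAM). The labels give the doses as 0.4 to 1 µM tamoxifen and 2 to 4 µM AZD0530. How long TAM was given before RNA-seq is not stated. The treatment followed transfection with a control siRNA (Ctrli) or a pool of siRNAs against YAP1 (YAPi), WWTR1 (TAZi), STAT3 (STAT3i) or JUNB (JUNBi). The second line, MDA-MB-231, is a triple-negative breast cancer line that was profiled in 2 sets. Its samples carry the same treatment text as the ER-Src samples but name neither ETH nor TAM in their titles, so whether these cells received either agent is uncertain.

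Set 1 held Ctrli, YAPi, TAZi, combined YAPi_TAZi and TEADi cells, where TEADi targets the TEAD transcription factors. Set 2 held its own Ctrli with JUNBi and STAT3i cells. The labels do not say whether the libraries of a group came from separate cultures, so p-values measure the spread between these libraries, which may be technical. All groups of a line share that line's background, including the ER-Src fusion in the control cells.

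Total estimated counts were 6419720 to 19161700 in ER-Src libraries and 7290499 to 18076158 in set 2. In set 1 they were 13456784 and 13534560 in Ctrli but 1411304 to 2784605 in the knockdown libraries. The share of counts from 6 RNAs without a poly(A) tail was 0.00278% and 0.00407% in set 1 Ctrli and 8.71% to 11.8% in the set 1 knockdowns, so in set 1 knockdown and library type cannot be told apart in any comparison with Ctrli. The defining basal keratin KRT5 was at 1010 to 2620 TPM (transcript abundance per length, scaled to the same total in each library) in ER-Src libraries and VIM at 369 to 2590 TPM in MDA-MB-231 libraries. VIM was at 184 to 338 TPM in ER-Src libraries. KRT5 was at 0 TPM in set 1 Ctrli and set 2 but reached 11.5 TPM in set 1 knockdowns. ESR1 reached 2.57 TPM there, against 0.02 and 0.04 TPM in set 1 Ctrli. ZEB1 was at 2.37 to 5.74 TPM in ER-Src libraries, 6.57 to 23.4 TPM in set 1 and 0.82 to 1.44 TPM in set 2. The source of these differences was not tested. Each targeted mRNA was lower in its knockdown. The log2 fold changes ran from -0.82 for TEAD1 in TEADi to -4.90 for WWTR1 in TAZi of set 1, apart from TEAD4, whose mean was 1.16 normalized counts in TEADi and 113 in Ctrli. JUNB in ETH cells (-1.16) did not pass the test (adjusted p = 0.0637), while STAT3 in set 2 had no adjusted p. In some knockdowns other targeted genes were lower as well. JUNB changed by -2.41 in TAM STAT3i (DESeq2 adjusted p = 2.5e-47), against -2.03 in TAM JUNBi, so TAM STAT3i cells had low JUNB mRNA as well. In set 1, WWTR1 (-1.14) and TEAD3 (-1.53) were lower in YAPi than in Ctrli, where library type also differed. TEAD3 was below Ctrli in TAZi (-1.32), YAPi_TAZi (-1.24) and TEADi (-1.62) too. Against the other set 1 knockdowns TEAD3 in YAPi did not pass (-0.16, DESeq2 adjusted p = 0.811). Whether YAPi itself lowered these 2 genes can therefore not be told.

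The promoters of these genes are known for a small set of response elements, so the windows that held one are shown before the expression values. RefSeq start-site windows (GRCh38.p14, 250 bases before to 50 after the start) were found for 38 of the 42 genes, 58 windows in all. Of these genes 15 had more than 1 window. Letters were searched on both strands. A member was counted if any of its windows matched, whereas the percentages below are over windows, so the 2 are not on the same scale. The CARE letters TGATGNAA, bound by ATF4 with C/EBP partners, were present in 3.62% of all 35116 windows and in those of 9 members. The ER stress response element (ERSE) was in 0.0769% of all windows and in those of 6 members, its variant ERSE-II in 0.0541% and in those of 2 members, and the UPRE letters TGACGTGG in 0.729% and in that of 1 member, ALDH18A1. A match describes these letters only and is not evidence of binding.

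CARE windows are given first, for an amino acid enzyme, a transcription factor, transporters and a tRNA synthetase, and then ERSE windows of 3 chaperones and XBP1 and the ERSE-II window of the degradation gene HERPUD1. They were picked to show each element in genes of different roles. Some of these genes, among them SLC1A5 and SLC3A2, also had windows without the element, and that of SLC3A2 begins 37 bases after the start. Capitals mark the element, 10 bases stand on either side where the window reaches that far, and each sequence runs 5′ to 3′ on the strand of the gene. Where the element reads in its usual direction on the opposite strand, the line says so.
ASNS, minus strand, chr7:97872459-97872486: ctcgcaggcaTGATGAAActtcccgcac
CEBPG, plus strand, chr19:33374061-33374088: gcgcggcgtcTGATGCAAcctgccggca
SLC1A5, minus strand, chr19:46784894-46784921: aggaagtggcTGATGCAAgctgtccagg
AARS1, minus strand, element on the opposite strand, chr16:70289676-70289703: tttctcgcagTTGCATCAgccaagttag
SLC3A2, plus strand, element on the opposite strand, chr11:62881726-62881748: gcaggactccTTACATCAgctcc
HSPA5, minus strand, ERSE, chr9:125241381-125241419: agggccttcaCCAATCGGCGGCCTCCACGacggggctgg
CANX, plus strand, ERSE, chr5:179698768-179698806: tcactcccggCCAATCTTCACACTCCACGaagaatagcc
PDIA6, minus strand, ERSE, chr2:10812843-10812881: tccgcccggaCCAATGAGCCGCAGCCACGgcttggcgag
XBP1, minus strand, ERSE, chr22:28800593-28800631: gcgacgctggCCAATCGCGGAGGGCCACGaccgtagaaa
HERPUD1, plus strand, ERSE-II, chr16:56932015-56932045: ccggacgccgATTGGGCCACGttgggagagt

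Levels per length covered a wide range in ETH Ctrli cells. The lectin chaperone CANX was highest at 322 and 375 TPM, followed by the transporter heavy chain SLC3A2 at 170 and 196 TPM and the calcium-binding chaperone CALR at 158 and 164 TPM. The ranges of these neighbors did not overlap. ATF4 itself was at 86.3 and 112 TPM. The pro-apoptotic factor DDIT3 (CHOP) was at 2.89 and 3.61 TPM, CHAC1 at 0.17 and 0.23 TPM and VLDLR at 0.02 and 0.03 TPM. In set 1 Ctrli of MDA-MB-231 the order began with HSP90B1 at 1270 and 1350 TPM and CALR at 1150 and 1160 TPM, and STC2 was lowest at 0.86 and 1.21 TPM. TPM shifted with the make-up of the libraries, the median log2 TPM ratio of all expressed genes being -0.323 for TAM against ETH, so levels between libraries are given below as normalized counts, scaled separately for the 20 ER-Src libraries, set 1 and set 2.

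In Ctrli ER-Src cells, the TAM treatment was not accompanied by a common shift of these genes. ATF4 and the chaperones kept their levels within the spread of the libraries or did not pass the test, while transporter genes changed in both directions, CEBPB, ATF6 and EDEM1 rose and PSAT1 fell. In DESeq2, 8 of 42 members passed an adjusted p of 0.01, 5 higher and 3 lower, where 6.21% of all 15724 genes tested passed in either direction (4.62% of genes higher and 1.59% lower). The median log2 fold change was 0.03 over the members and -0.01 over all genes tested.

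**Figure D1:**
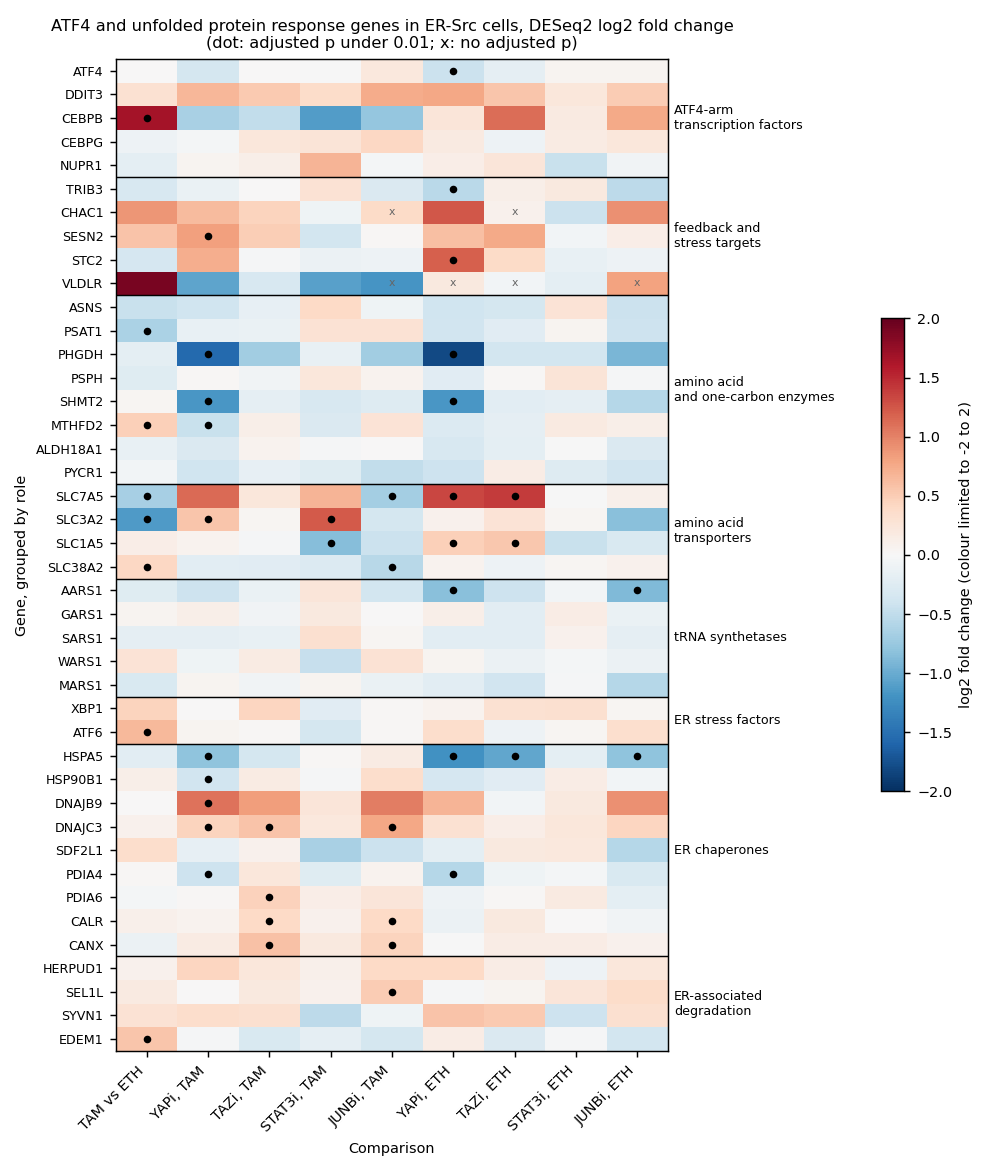
Log2 fold change of the 42 genes (rows, grouped by role) in 9 comparisons of ER-Src cells (columns), TAM against ETH in Ctrli and each knockdown against Ctrli in TAM and in ETH cells. Red is higher and blue lower, with color limited to -2 to 2, a dot marks an adjusted p under 0.01 and an x a gene without an adjusted p. PHGDH, SHMT2 and HSPA5 are blue with dots under YAPi in both states, and no dot stands in the column of STAT3i in ETH cells.

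Among the transcription factors, ATF4 (chr22:39519695-39522683) gave 4100 and 3811 normalized counts in ETH Ctrli and 3831 and 4026 in TAM Ctrli. These overlapped, and the log2 fold change was 0.00 ± 0.10 (SE, n = 2 per group, adjusted p = 1). CEBPB, a leucine zipper factor that pairs with ATF4 and also serves inflammatory genes, had 446 and 716 in ETH against 1380 and 2266 in TAM cells. Both TAM libraries were above both ETH libraries, with a log2 fold change of 1.66 ± 0.48 (adjusted p = 0.00862). DDIT3 (chr12:57516588-57521737) was at 77 and 82 in ETH and 104 and 90 in TAM Ctrli, a change of 0.31 ± 0.41 that did not pass (adjusted p = 0.9). Its exons overlap those of MARS1 on the other strand, so its low values are uncertain if the counting did not use strand.

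ATF4 mRNA passed the test in 1 of the 8 knockdown comparisons. It fell to 2908 and 3032 in ETH YAPi, below both ETH Ctrli libraries (log2 fold change -0.42 ± 0.11, adjusted p = 0.00138), and was 3254 and 2859 in TAM YAPi, also below both controls (-0.35, adjusted p = 0.0211), which did not pass. The ETH call was lost with edgeR (adjusted p = 0.015) and with length offsets (adjusted p = 0.289). In the other 6 knockdown comparisons the change of ATF4 lay between -0.17 and 0.22 and none passed. DDIT3 in ETH cells was at 128 and 148 with YAPi, 126 and 109 with TAZi, 96 and 88 with STAT3i and 103 and 125 with JUNBi, and in TAM cells at 150 and 159, 142 and 139, 116 and 132, and 157 and 163 in the same order. Its log2 fold changes lay between 0.23 and 0.78 and passed in no comparison, the smallest adjusted p being 0.0991 in ETH YAPi.

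Of the feedback and stress targets, STC2, a secreted glycoprotein hormone, was at 605 and 542 in ETH Ctrli and 1099 and 1545 in ETH YAPi. All ETH YAPi values were above the control values, a rise of 1.19 ± 0.18 (adjusted p = 1.06e-09). The stress-induced mTORC1 inhibitor SESN2 rose in TAM YAPi, with 410 and 394 against 226 and 231 in TAM Ctrli (0.82 ± 0.22, adjusted p = 0.00273). TRIB3, a pseudokinase that restrains ATF4, fell in ETH YAPi from 929 and 940 to 570 and 728 (-0.54, adjusted p = 0.00956). CHAC1 and VLDLR were at 3 to 28 normalized counts in ER-Src libraries, and neither passed in any comparison with Ctrli or with TAM. VLDLR was at 7.12 and 3.46 in ETH Ctrli and 22.6 and 16.4 in TAM Ctrli, a rise that did not pass at these low counts.

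PHGDH and SHMT2, enzymes of serine and one-carbon metabolism, fell under YAPi in both states. PHGDH, which opens the serine synthesis pathway, gave 625 and 723 in ETH Ctrli and 549 and 618 in TAM Ctrli, and 229 and 154 in ETH YAPi and 198 and 196 in TAM YAPi. No YAPi library reached a control library in either state, and PHGDH fell by 1.81 ± 0.22 in ETH (adjusted p = 3.27e-14) and by 1.56 ± 0.21 in TAM cells (adjusted p = 5.84e-12). SHMT2, which passes the serine carbon to folate in mitochondria, went from 2498 and 2633 to 1139 and 1173 in ETH and from 2554 and 2654 to 1168 and 1144 in TAM cells. It fell by 1.16 ± 0.12 in both states (adjusted p = 9.52e-20 and 1.66e-19). The calls on both genes held under each of the 6 other settings tried and without any single library.

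MTHFD2, the next enzyme in the mitochondrial folate pathway, had a smaller change of the same sign in TAM YAPi, from 2606 and 2673 to 1945 and 1904 (-0.45, adjusted p = 0.00141), a call lost with edgeR (adjusted p = 0.0109). It rose with TAM itself, from 2023 and 1800 in ETH Ctrli (0.48 ± 0.12, adjusted p = 0.000828), which was lost with length offsets (adjusted p = 0.156), while PSAT1, the second serine enzyme, fell with TAM from 939 and 814 to 545 and 575 (-0.64 ± 0.17, adjusted p = 0.00309). Of the 8 enzymes, 2 were lower in ETH YAPi and 3 in TAM YAPi and none higher, with medians of -0.39 and -0.40 where all genes tested had medians of 0.00 and 0.01. No enzyme passed under TAZi, STAT3i or JUNBi in either state. ASNS, which makes asparagine and carries the CARE window printed above, had 426 and 338 in ETH Ctrli, 286 and 270 in TAM Ctrli, 277 and 311 in ETH YAPi and 204 and 216 in TAM YAPi. Each YAPi library was below its controls, but the changes of -0.39 and -0.40 did not pass (adjusted p = 0.23 and 0.32). Under TAZi its counts were 309 and 291 in ETH and 232 and 264 in TAM, under STAT3i 498 and 417 and 377 and 348, and under JUNBi 329 and 246 and 262 and 252, and none of these differences passed.

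**Figure D2:**
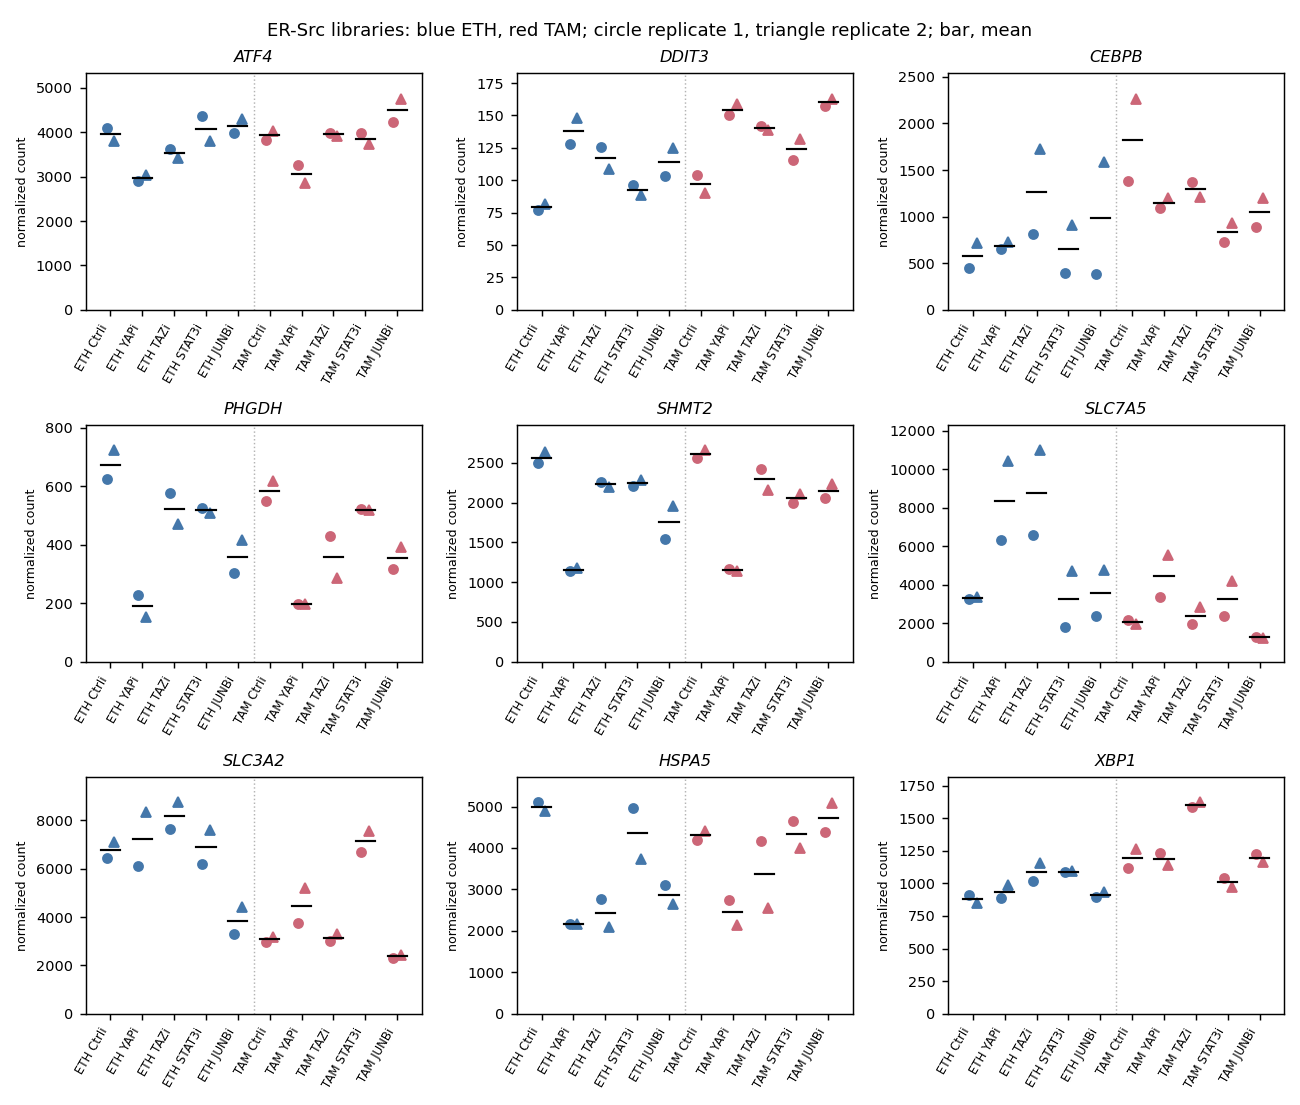
Normalized counts of 9 genes in each of the 20 ER-Src libraries, ETH groups in blue to the left of the dotted line and TAM groups in red to the right, circles for replicate 1, triangles for replicate 2 and bars for the group mean. PHGDH and SHMT2 are lowest under YAPi in both states, and SLC3A2 in TAM STAT3i cells, at 6715 and 7571, lies above the TAM controls, at 2984 and 3184.

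Of the 4 amino acid transporters, 2 fell and 1 rose with TAM. SLC3A2 (CD98 heavy chain), which carries SLC7A5 to the plasma membrane, had 6455 and 7110 in ETH Ctrli and 2984 and 3184 in TAM Ctrli, and the groups were far apart. It fell by 1.13 ± 0.10 on the log2 scale (adjusted p = 9.82e-27). Its partner SLC7A5, the exchanger for large neutral amino acids, went from 3275 and 3338 to 2169 and 1946 (-0.67 ± 0.11, adjusted p = 9.46e-08). The neutral amino acid transporter SLC38A2 moved the other way, from 5513 and 4942 to 6998 and 6877 (0.42 ± 0.10, adjusted p = 0.000369).

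With STAT3 knocked down, the SLC3A2 libraries of TAM and ETH cells overlapped. TAM STAT3i libraries held 6715 and 7571, above both TAM Ctrli libraries (1.23 ± 0.12, adjusted p = 1.27e-23), whereas ETH STAT3i libraries held 6211 and 7594, which overlapped ETH Ctrli (0.04 ± 0.16, adjusted p = 1). No other member passed an interaction test in DESeq2 with default settings. The interaction of STAT3i with TAM was 1.18 ± 0.20 for SLC3A2 (adjusted p = 8.28e-07). It was lost with edgeR (adjusted p = 0.023) and held without any single library. In TAM JUNBi cells SLC3A2 was at 2323 and 2449 and in ETH JUNBi cells at 3289 and 4413, below the controls in both states without passing (adjusted p = 0.0373 and 0.0137). Under YAPi in TAM cells it rose to 3772 and 5184 (0.55, adjusted p = 0.0043), which was lost with edgeR (adjusted p = 0.0423). SLC1A5, the glutamine carrier, fell in TAM STAT3i from 1186 and 1304 to 556 and 809 (-0.85 ± 0.19, adjusted p = 0.00015), which length offsets ended (adjusted p = 0.106).

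SLC7A5 and SLC1A5 rose in ETH cells under both YAPi and TAZi. SLC7A5 reached 6322 and 10417 under YAPi and 6562 and 10970 under TAZi, all above the ETH controls, with changes of 1.33 ± 0.35 (adjusted p = 0.00157) and 1.40 ± 0.35 (adjusted p = 0.00225). SLC1A5 went from 1157 and 1125 to 1416 and 1791 under YAPi and 1497 and 1837 under TAZi, and these calls were lost with edgeR (adjusted p = 0.0251 and 0.0197). Replicate 2 was the higher library in each of these 4 knockdown pairs. In TAM cells SLC7A5 fell under JUNBi to 1272 and 1257 (-0.68 ± 0.14, adjusted p = 2.25e-05), and SLC38A2 fell there to 5074 and 4256 (-0.55, adjusted p = 0.000189; edgeR adjusted p = 0.0155).

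Of the tRNA synthetases, AARS1, which charges alanine tRNA, passed in ETH cells. It fell from 2384 and 2326 in ETH Ctrli to 1350 and 1305 in ETH YAPi (-0.83 ± 0.12, adjusted p = 2.05e-10) and to 1229 and 1342 in ETH JUNBi (-0.89 ± 0.23, adjusted p = 0.00377). The JUNBi call was lost with edgeR (adjusted p = 0.0929). GARS1, SARS1, WARS1 and MARS1 passed in none of the 9 comparisons.

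Among ER chaperones, HSPA5 fell under several knockdowns in ETH cells. HSPA5 (chr9:125234853-125241382), the main ER HSP70 and the gene with the ERSE window printed above, had 5103 and 4886 in ETH Ctrli and fell to 2171 and 2153 under YAPi, 2769 and 2099 under TAZi and 3103 and 2646 under JUNBi. Each of these libraries was below both controls, by 1.22 ± 0.11 (adjusted p = 1.36e-27), 1.04 ± 0.14 (adjusted p = 5.65e-12) and 0.81 ± 0.22 (adjusted p = 0.00912) on the log2 scale. The JUNBi call was lost with edgeR (adjusted p = 0.113) and length offsets (adjusted p = 0.0881). STAT3i gave 4963 and 3741, which overlapped the controls (adjusted p = 1).

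In TAM cells HSPA5 was at 4204 and 4400 in Ctrli and fell under YAPi to 2746 and 2149 (-0.81 ± 0.14, adjusted p = 2.14e-07). It did not pass under TAZi, where the libraries held 4173 and 2554, nor under STAT3i with 4659 and 3999 or JUNBi with 4380 and 5077. The difference between TAM and ETH in the JUNBi effect was 0.94 (adjusted p = 0.0111), and it passed with the replicate number as a block (adjusted p = 0.000408), with TMM size factors and with a local dispersion trend but not with edgeR, length offsets or a mean count filter. That of the TAZi effect was 0.67 (adjusted p = 0.364). Neither difference passed in DESeq2 with default settings.

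Several chaperones were higher in TAM cells under TAZi and JUNBi. Under TAZi 4 of 42 members were called, all higher and all chaperones, where 3.42% of 13729 genes passed in either direction (1.75% of genes higher and 1.68% lower), and the 9 chaperones had a median of 0.41 against 0.00 for all genes. CANX, a membrane lectin that folds glycoproteins, rose from 12685 and 12701 to 18764 and 19370 (0.59 ± 0.08, adjusted p = 1.47e-11). PDIA6, a disulfide isomerase, rose from 2791 and 2790 to 3834 and 3821 (0.46 ± 0.10, adjusted p = 0.000132), and no TAZi library overlapped its controls. CALR went from 6238 and 5990 to 8492 and 7687 (0.41 ± 0.10, adjusted p = 0.00101), and DNAJC3, a cochaperone that also inhibits the eIF2 kinase PERK, from 1295 and 1330 to 1906 and 1984 (0.57 ± 0.12, adjusted p = 8.4e-05). With edgeR DNAJC3 was still called, and the calls on CANX, PDIA6 and CALR had adjusted p = 0.0104, 0.0117 and 0.0469.

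Under JUNBi in TAM cells 6 of 40 members tested were called, 4 higher and 2 lower, where 6.90% of 13045 genes passed (2.84% of genes higher and 4.06% lower). DNAJC3 reached 2395 and 2020 (0.77 ± 0.14, adjusted p = 3.04e-06), CANX 18033 and 16113 (0.45, adjusted p = 0.000602) and CALR 7509 and 8438 (0.41, adjusted p = 0.00479). SEL1L, the adaptor of the ER ubiquitin ligase HRD1, rose from 942 and 968 to 1400 and 1283 (0.51, adjusted p = 0.00821). The calls on CANX, CALR and SEL1L were lost with edgeR (adjusted p = 0.0284, 0.0457 and 0.018). In DESeq2 with default settings no chaperone passed an interaction test, the JUNBi interaction of HSPA5 being the case described above that depended on the setting.

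**Figure D3:**
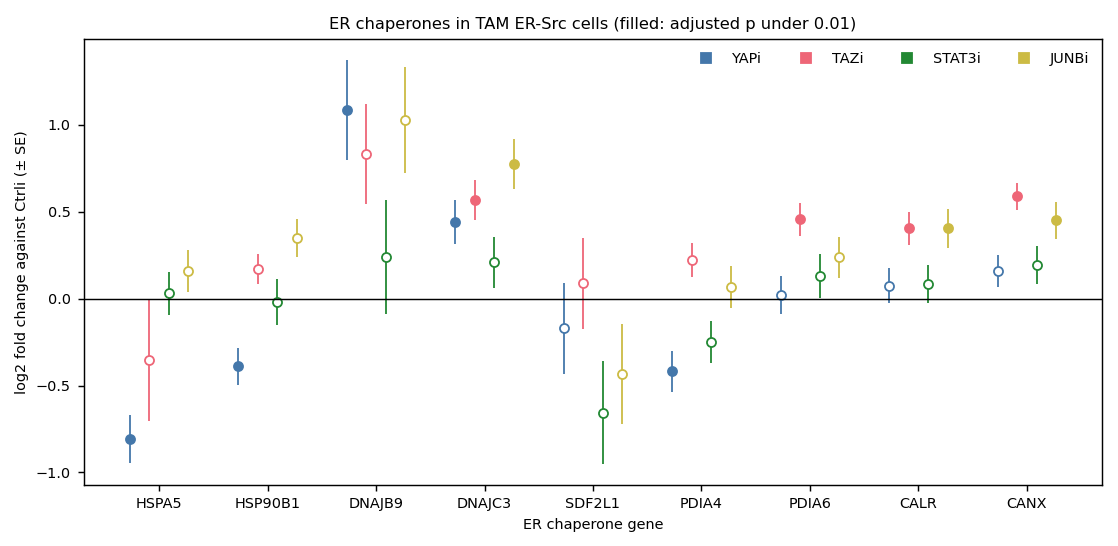
Log2 fold change against Ctrli with its standard error for the 9 ER chaperones in TAM ER-Src cells, colored by knockdown, with filled points where the adjusted p was under 0.01. CANX, CALR and DNAJC3 are filled and above 0 under TAZi and JUNBi, whereas HSPA5, HSP90B1 and PDIA4 are filled and below 0 under YAPi.

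Under YAPi in TAM cells the chaperones split, with 2 higher and 3 lower of 9 and a median of 0.02. DNAJB9, an HSPA5 cochaperone, rose from 117 and 139 to 293 and 244 (1.09 ± 0.29, adjusted p = 0.00208) and DNAJC3 to 1807 and 1730 (0.44, adjusted p = 0.00591). HSP90B1, the ER HSP90, fell from 8270 and 8033 to 6494 and 5872 (-0.39, adjusted p = 0.00237) and PDIA4, another disulfide isomerase, from 2875 and 3029 to 2298 and 2093 (-0.42, adjusted p = 0.00449). In ETH YAPi, PDIA4 also fell, from 2940 and 2883 to 1955 and 1980 (-0.57, adjusted p = 8.25e-06). The call on DNAJC3 was lost with edgeR (adjusted p = 0.0121) and that on DNAJB9 with length offsets (adjusted p = 0.0368).

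Of the ER stress factors and the degradation genes, ATF6 and EDEM1 passed with TAM, and SEL1L passed under JUNBi in TAM cells as given above. ATF6, the membrane-bound sensor and factor, rose from 843 and 751 in ETH Ctrli to 1309 and 1162 in TAM Ctrli (0.65 ± 0.15, adjusted p = 0.000438), and EDEM1, which extracts misfolded glycoproteins from the folding cycle, from 890 and 892 to 1323 and 1281 (0.56 ± 0.14, adjusted p = 0.000852). With length offsets both calls were lost (adjusted p = 0.452 and 0.019). XBP1 (chr22:28794555-28800597) was at 914 and 848 in ETH and 1121 and 1267 in TAM Ctrli, 0.45 ± 0.15 higher without passing (adjusted p = 0.0285). Under knockdown in ETH cells it was 889 and 985 with YAPi, 1022 and 1156 with TAZi, 1085 and 1094 with STAT3i and 893 and 936 with JUNBi. In TAM cells it was 1234 and 1138, 1588 and 1623, 1043 and 973, and 1225 and 1166 in the same order. XBP1 passed in no knockdown comparison, TAM TAZi being above its controls (adjusted p = 0.0172).

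Across the knockdowns, the counts of members called are given beside the share of all genes that passed, and some lay near that share. YAPi gave 10 of 42 in TAM, 4 higher and 6 lower, where 10.7% of all genes passed (5.27% of genes higher and 5.40% lower), and 10 of 41 in ETH cells, 3 higher and 7 lower, where 11.6% passed (5.11% of genes higher and 6.47% lower). TAZi gave 3 of 40 in ETH cells, 2 higher and 1 lower, where 5.24% passed (2.60% of genes higher and 2.64% lower). STAT3i gave 2 of 42 in TAM cells, 1 higher and 1 lower, where 8.22% passed (3.34% of genes higher and 4.88% lower). In ETH cells it gave 0 of 42, where 0.189% passed (0.0358% of genes higher and 0.153% lower), with no member at an unadjusted p under 0.05 and none called by edgeR. The 2 ETH STAT3i libraries stood apart from each other, with SLC7A5 at 1805 and 4718 and CEBPB at 396 and 912. This spread limits what could pass there, so the 0 calls do not show that levels were unchanged. JUNBi gave 2 of 41 in ETH cells, both lower, where 2.80% passed (1.19% of genes higher and 1.61% lower), and the 2 ETH JUNBi libraries stood apart from each other, with CEBPB at 389 and 1586. Without ETH JUNBi replicate 2 the count there was 11, without replicate 1 it was 4, and without either ETH control it was 0. All 4 knockdowns of a state were compared with the same 2 control libraries.

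Interactions with TAM were called for 0 members under YAPi, where 0.498% of genes passed, 0 of 30 tested under TAZi (1.60%), 1 under STAT3i (1.34%) and 0 under JUNBi (0.288%). By direction the shares of all genes were 0.179% higher and 0.319% lower for YAPi, 0.339% higher and 1.27% lower for TAZi, 0.432% higher and 0.912% lower for STAT3i and 0.0690% higher and 0.219% lower for JUNBi. At an unadjusted p under 0.05, 6 members were counted under YAPi, 8 under TAZi, 4 under STAT3i and 6 under JUNBi, and edgeR called none. In the ER-Src comparisons, STAT3i and JUNBi libraries differed from the others in read length as seen in the tables (length minus effective length 49.0 against 49.47 to 49.49 bases), and the part of this in the results was not tested.

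In MDA-MB-231 the knockdowns of set 1 are first compared with each other, since they share depth and library type, using the replicate number as a block because deviations of same-numbered libraries correlated at 0.792 to 0.825. HSPA5, SHMT2, EDEM1 and SLC7A5 separated the knockdowns, CEBPB did so only with the block, and ATF4, DDIT3 and XBP1 did not. Of the members tested, 8 of 38 were called in YAPi against the other 3 knockdowns (3 higher, 5 lower), where 11.2% of genes passed, 8 of 39 in TAZi (4 higher, 4 lower, 9.70%), 6 of 39 in YAPi_TAZi (5 higher, 1 lower, 10.0%) and 10 of 39 in TEADi (5 higher, 5 lower, 11.7%). The shares of all genes higher and lower were 7.23% and 3.95% for YAPi, 5.37% and 4.33% for TAZi, 4.27% and 5.76% for YAPi_TAZi and 6.11% and 5.58% for TEADi. These comparisons share libraries and are not independent.

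**Figure D4:**
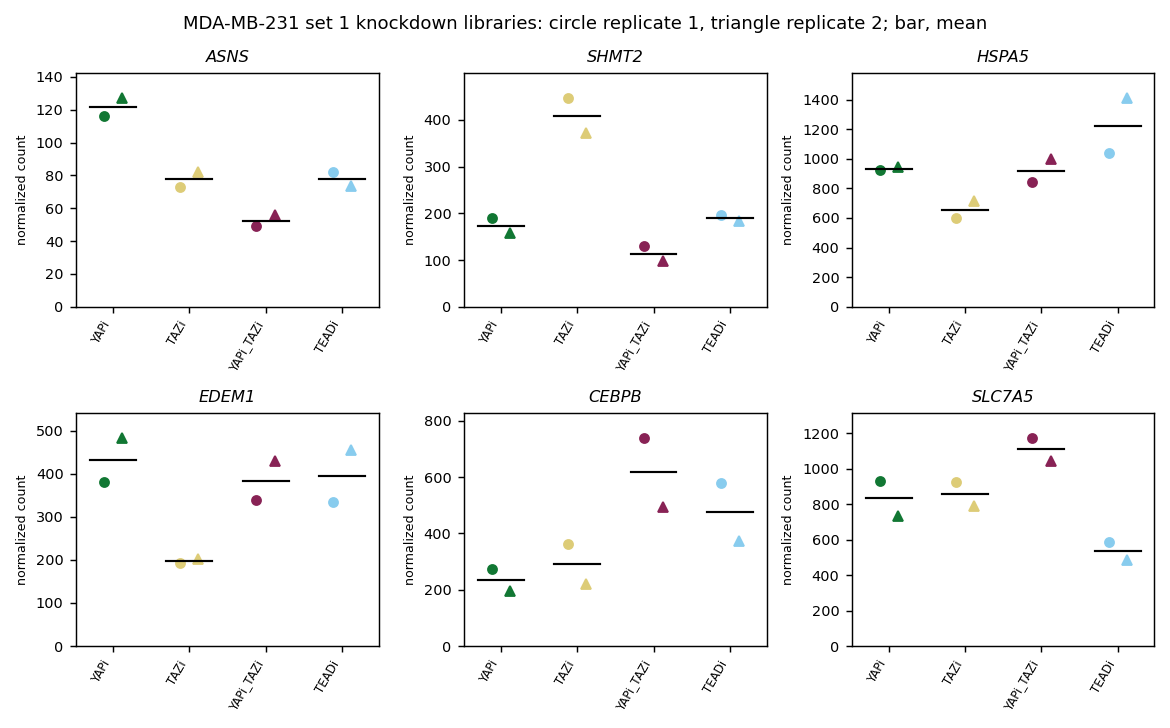
Normalized counts of 6 genes in the 8 knockdown libraries of MDA-MB-231 set 1, with circles for replicate 1, triangles for replicate 2 and bars for the group mean. SHMT2 is highest and EDEM1 and HSPA5 are lowest in TAZi, and SLC7A5 is highest in YAPi_TAZi and lowest in TEADi.

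SHMT2 had 446 and 372 normalized counts in TAZi, 190 and 157 in YAPi, 197 and 183 in TEADi and 130 and 97 in YAPi_TAZi. TAZi libraries were above all others (1.40 ± 0.14, adjusted p = 2.84e-22) and YAPi_TAZi libraries below all others (-1.08 ± 0.17, adjusted p = 1.71e-08). MTHFD2 was also higher in TAZi, with 226 and 236 against 96 to 179 elsewhere (0.89 ± 0.17, adjusted p = 2.02e-06), which was lost with length offsets (adjusted p = 0.0816). ASNS was highest in YAPi at 116 and 127, against 49 to 82 in the other knockdowns (0.83 ± 0.23, adjusted p = 0.0042), a call lost with length offsets (adjusted p = 0.304) and without the block (adjusted p = 0.0162).

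Transporters differed in the same libraries. SLC7A5 was 1177 and 1044 in YAPi_TAZi, 933 and 734 in YAPi, 926 and 789 in TAZi and 585 and 485 in TEADi. It was higher than in the other knockdowns by 0.61 ± 0.08 in YAPi_TAZi (adjusted p = 1.34e-12) and lower in TEADi (-0.79 ± 0.09, adjusted p = 1.82e-17). SLC1A5 was higher in YAPi, at 443 and 307 against 165 to 197 (1.04 ± 0.15, adjusted p = 7.41e-10). SLC3A2 was lower in TEADi, at 763 and 707 (-0.31, adjusted p = 0.00197; with length offsets 0.0106). CEBPB was 740 and 495 in YAPi_TAZi and 579 and 374 in TEADi against 274 and 195 in YAPi and 362 and 222 in TAZi. Replicate 1 was the higher CEBPB library in each pair, and the order of the 4 knockdowns was the same within each replicate number. Without the block no CEBPB call held (DESeq2 adjusted p = 0.0697 in YAPi, 0.512 in TAZi, 0.0579 in YAPi_TAZi and 0.491 in TEADi). With length offsets those in TAZi and TEADi were lost (adjusted p = 0.0682 and 0.095).

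Among ER genes, HSPA5 was lowest in TAZi, with 599 and 714, and highest in TEADi, with 1038 and 1409, against 844 to 996 in YAPi and YAPi_TAZi. It was lower in TAZi (-0.62 ± 0.10, adjusted p = 2.7e-09) and higher in TEADi by 0.56 ± 0.09 (adjusted p = 3.06e-08). EDEM1 was 192 and 202 in TAZi against 334 to 484 elsewhere (-1.03 ± 0.13, adjusted p = 1.67e-13), and higher in YAPi (0.48, adjusted p = 0.000656). DNAJB9 was 61 and 121 in TEADi against 126 to 212 (-0.83, adjusted p = 0.00178), and SEL1L was higher there, at 541 and 598 against 359 to 475 (0.47, adjusted p = 0.000133). DNAJC3 was also higher in TEADi, at 378 and 479 (0.42, adjusted p = 0.00292). VLDLR was lower in TAZi, with 36 and 50 against 68 to 123 (-1.14, adjusted p = 0.00312). With length offsets the calls on EDEM1 in YAPi (0.25, adjusted p = 0.589), SEL1L in TEADi (0.23, adjusted p = 0.598), DNAJB9 in TEADi (adjusted p = 0.0585) and VLDLR in TAZi (adjusted p = 0.0371) were lost.

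Smaller differences were called for abundant chaperones. In YAPi, HSP90B1 (-0.31), PDIA4 (-0.29), CALR (-0.25) and CANX (-0.21) were lower than in the other knockdowns, while CALR (0.27), HSP90B1 (0.23) and CANX (0.20) were higher in YAPi_TAZi. PDIA4 (0.40) and CANX (0.18) were higher in TAZi, and PDIA4 (-0.31) and CANX (-0.17) lower in TEADi. CEBPB was lower in YAPi (-0.91) and TAZi (-0.50) and higher in YAPi_TAZi (0.95) and TEADi (0.45), and WARS1, the tryptophan synthetase, was higher in TEADi (0.43). Their adjusted p-values lay between 3.85e-17 and 0.00992. With length offsets, which allow for the 48.0 and 74.56 to 74.57 base difference between replicate 1 and replicate 2 libraries, 4, 4, 3 and 3 members were called in YAPi, TAZi, YAPi_TAZi and TEADi. The share of all genes passing with these offsets is not given here.

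ATF4 was 496 and 440 in YAPi, 533 and 458 in TAZi, 432 and 376 in YAPi_TAZi and 478 and 445 in TEADi, and differed from the other knockdowns by -0.24 to 0.16 without passing. DDIT3 was 39 and 77, 73 and 67, 65 and 70, and 82 and 63 in the same order, and XBP1 322 and 337, 320 and 375, 383 and 389, and 378 and 369. Neither passed in any of the 4 comparisons.

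**Figure D5:**
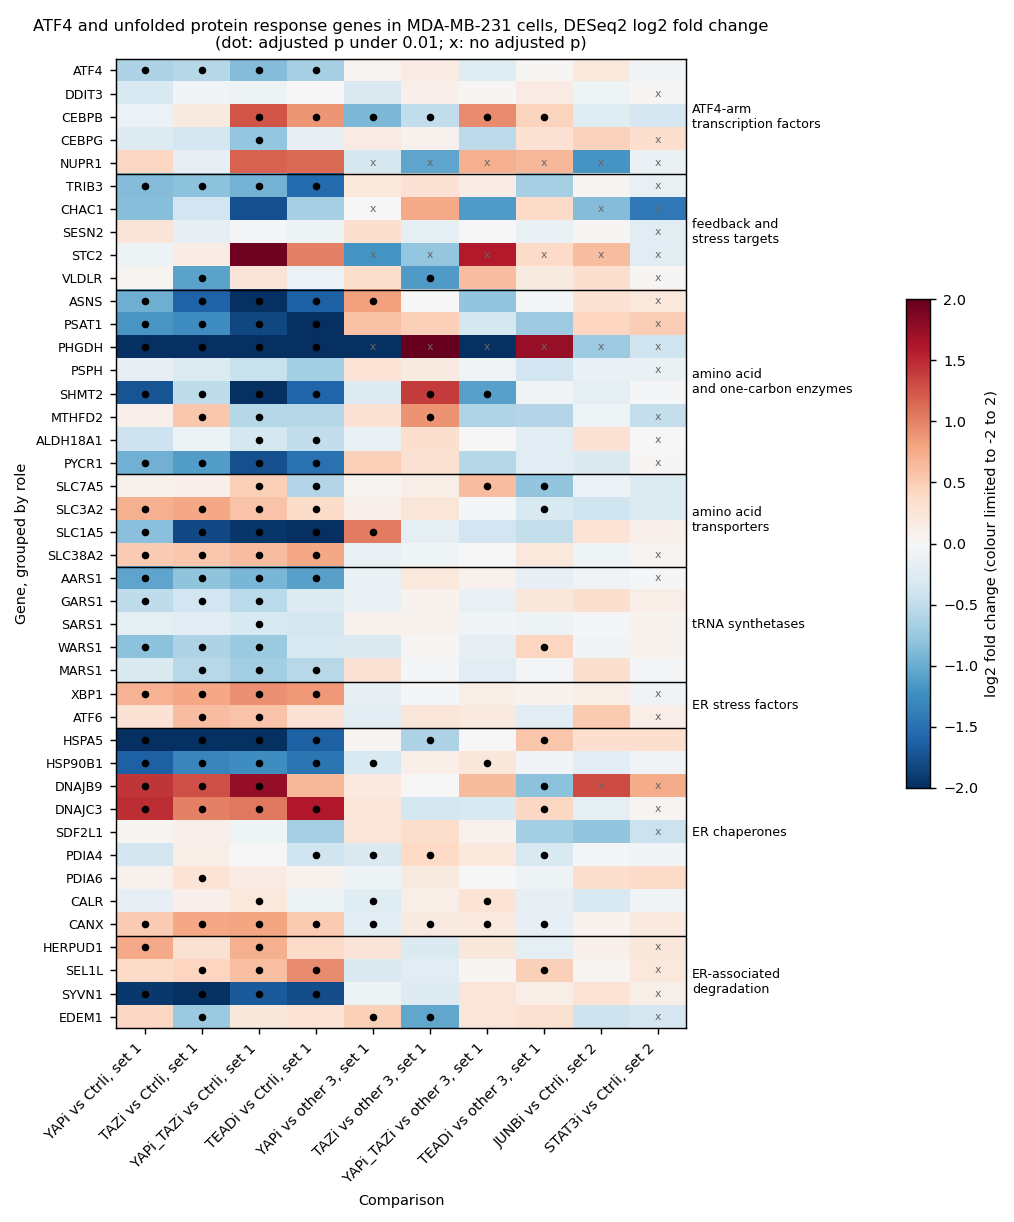
Log2 fold change of the 42 genes (rows, grouped by role) in 10 comparisons of MDA-MB-231 cells (columns), set 1 knockdowns against Ctrli, set 1 knockdowns against each other and set 2 knockdowns against Ctrli. Red is higher and blue lower, with color limited to -2 to 2, a dot marks an adjusted p under 0.01 and an x a gene without an adjusted p. Dots fill much of the 4 columns against set 1 Ctrli and are absent from both columns of set 2.

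Against set 1 Ctrli, many members differed, as did many of all genes. Called were 21 of 42 members in YAPi (7 higher, 14 lower), where 24.4% of genes passed, 27 in TAZi (10 and 17, 32.8%), 31 in YAPi_TAZi (12 and 19, 35.6%) and 23 in TEADi (7 and 16, 27.5%). All genes were called higher and lower at 12.4% and 12.1% for YAPi, 16.0% and 16.8% for TAZi, 17.3% and 18.2% for YAPi_TAZi and 13.5% and 14.0% for TEADi. Depth and the share of RNAs without a poly(A) tail differed between these knockdowns and their controls as given above. With the controls of both sets together, 5, 4, 7 and 7 members were called. The share of all genes passing in these fits is not given here, so the fall is not a result about the members. The set 2 controls also had a low share of RNAs without a poly(A) tail (0.00915% and 0.00363%). Knockdown and library type therefore cannot be told apart in this setting either.

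Most of the 8 enzymes were lower, with 5, 5, 7 and 6 called in YAPi, TAZi, YAPi_TAZi and TEADi, 1 higher in TAZi (MTHFD2, 0.53), and medians of -0.97, -0.81, -1.79 and -1.55, where the median of all genes tested lay between -0.02 and 0.06. PHGDH had 302 and 290 counts as deposited in Ctrli, 3 and 3 in TAZi, 1 and 2 in TEADi and 0 in all 4 libraries of YAPi and YAPi_TAZi. Against a floor of 3 counts per library it was at least 13.8-fold lower in YAPi and at least 10.9-fold lower in YAPi_TAZi. ASNS was 225 and 247 in Ctrli and 49 to 127 in the knockdowns (log2 fold changes -0.98, -1.62, -2.19 and -1.64, none of which passed with the controls of both sets), and PSAT1 was 393 and 382 in Ctrli and 59 to 182 in the knockdowns.

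HSPA5 was 3653 and 3819 in set 1 Ctrli and 599 to 1409 in the 8 knockdown libraries, none of which came near the controls. The log2 fold changes were -2.02 in YAPi, -2.54 in TAZi, -2.05 in YAPi_TAZi and -1.64 in TEADi. The first 3 also passed with the controls of both sets, a setting in which library type still differed between knockdowns and controls. HSP90B1 was also lower, at 1462 to 2321 against 4615 and 5057 (-1.25 to -1.64). In the other direction DNAJC3 was 138 and 141 in Ctrli and 267 to 479 in the knockdowns (1.01 to 1.59), XBP1 196 and 204 against 320 to 389 (0.70 to 0.91), and CANX 3544 and 3386 against 4646 to 6429. With the controls of both sets XBP1 passed in none of the 4 comparisons (adjusted p = 0.0902, 0.0772, 0.026 and 0.038), and the TAZi calls on DNAJC3 (adjusted p = 0.0173) and CANX (adjusted p = 0.0944) were lost. SYVN1, the HRD1 ubiquitin ligase, was lower, but it shares exons with the abundant FAU gene on the same strand and its values are uncertain.

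ATF4 was 701 and 719 in set 1 Ctrli against 376 to 533, a lower level in each knockdown (-0.62, -0.57, -0.86 and -0.66), and DDIT3 was 69 and 73 against 39 to 82 without passing. None of the ATF4 calls held with the controls of both sets. In ETH and TAM ER-Src cells, whose libraries share 1 type, PHGDH, SHMT2 and HSPA5 were lower under YAPi as given above. The size of the change in the 2 lines was not compared, because knockdowns and Ctrli of set 1 differ in depth and library type.

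In set 2, no member was called. For JUNBi 0 of 37 tested passed, where 3.41% of 7966 genes passed (0.251% of genes higher and 3.16% lower), with 2 members at an unadjusted p under 0.05 and 0 called by edgeR. For STAT3i 0 of 16 tested passed, where 0.497% of 2013 genes passed (0% of genes higher and 0.497% lower), with 0 members at an unadjusted p under 0.05 and 0 called by edgeR. HSPA5 was 5882 and 4542 in Ctrli, 6421 and 6665 in JUNBi and 6520 and 6680 in STAT3i, so both knockdowns lay above the controls without passing (adjusted p = 0.266 and 0.317). ATF4 was 2972 and 3152 in Ctrli, 3705 and 3358 in JUNBi and 2887 and 2991 in STAT3i, and SLC3A2 was 2828 and 2516, 2104 and 1929, and 1967 and 2448. ASNS was 221 and 199, 217 and 294, and 225 and 259, XBP1 402 and 477, 445 and 515, and 437 and 403, and DDIT3 294 and 381, 357 and 273, and 329 and 361. None of the JUNBi differences passed, and for STAT3i neither ATF4 nor HSPA5 passed while ASNS, XBP1 and DDIT3 had no adjusted p.

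Genes of the same pathways outside the list were read beside it. They were 14 regulators, 12 other ER genes and 15 other cytosolic tRNA synthetases, of which 40 were tested in each ER-Src comparison with Ctrli. With TAM 3 were higher and 2 lower, where 6.21% of all genes passed in either direction. ATF3, a stress-induced repressor downstream of ATF4, rose from 21 and 21 to 198 and 178 (3.17 ± 0.43, adjusted p = 6.58e-12), and ERO1A, the oxidase that drives disulfide formation, from 679 and 620 to 1016 and 1031 (0.67, adjusted p = 0.000316). The cystine transporter SLC7A11 fell from 786 and 647 to 415 and 340 (-0.91 ± 0.20, adjusted p = 0.000212).

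Under knockdown in TAM cells, ATF3 fell to 87 and 81 with YAPi (-1.16), 24 and 26 with STAT3i (-2.88) and 81 and 73 with JUNBi (-1.27), all below TAM Ctrli, and was 218 and 174 with TAZi, which overlapped the controls. DDIT4, an mTORC1 inhibitor induced by ATF4 and by other stresses, was 10485 and 12965 in TAM Ctrli and fell to 4723 and 4174 with YAPi, 8271 and 6584 with TAZi, 8580 and 8490 with STAT3i and 5987 and 7989 with JUNBi. Its log2 fold changes were -1.39, -0.66, -0.44 and -0.72. ERN1, which encodes IRE1, fell with STAT3i from 173 and 156 to 59.8 and 68.5 (-1.34 ± 0.36, adjusted p = 0.0028). The eIF2 kinase genes EIF2AK1, EIF2AK2, EIF2AK3 and EIF2AK4 are among the regulators, and of these EIF2AK4 (GCN2) fell in ETH YAPi from 1753 and 1768 to 1350 and 1265 (adjusted p = 0.00526) and was lower in TAM YAPi (adjusted p = 0.00538).

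In TAM cells 4 of these genes were higher and 4 lower with YAPi (10.7% of all genes passed), 1 and 1 with TAZi (3.42%), 3 and 3 with STAT3i (8.22%) and 3 and 2 with JUNBi (6.90%). In ETH cells 3 were higher and 3 lower with YAPi (11.6%), 0 and 1 with TAZi (5.24%), and 0 and 0 in DESeq2 with both STAT3i (0.189%) and JUNBi (2.80%), where 3 and 1 of these genes had an unadjusted p under 0.05. In set 2 ATF5, another ATF4-linked factor, was 443 and 347 in Ctrli and fell to 205 and 173 in JUNBi (-1.06 ± 0.29, adjusted p = 0.009), the single call of 34 tested there, where 3.41% of all genes passed. In set 1, within the knockdowns, DDIT4 was higher in YAPi_TAZi, at 744 and 771, than in the other knockdowns, at 217 to 375 (1.49 ± 0.12, adjusted p = 5.27e-35).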

How the data were processed

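The labels give total RNA as the molecule for all 36 libraries, although the share of RNAs without a poly(A) tail was far lower in set 1 Ctrli and set 2 than in the others. Per the labels, the authors aligned reads with STAR to hg38 and quantified them with RSEM. The study's methods name the GENCODE transcriptome, the TruSeq Ribo Profile kit and DESeq2 with separate runs per siRNA. The authors deposited an RSEM estimated count per gene (expected counts, not normalized), TPM scaled by length and library, and effective lengths. Versions of the aligner and quantifier are not given in the sources used here.

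Expected counts were rounded and tested in R 4.3.3 with DESeq2 1.42.0 (default size factors, Wald test, independent filtering), separately for each comparison, with Benjamini-Hochberg adjustment over all genes tested and an adjusted p threshold of 0.01. DESeq2 replaced its parametric dispersion trend with a local one for YAPi_TAZi against set 1 Ctrli and within the set 1 knockdowns. Errors are standard errors of log2 fold changes from 2 libraries per group. Normalized counts were scaled once for all ER-Src libraries, once for set 1 and once for set 2, whereas fold changes come from each comparison's own fit. Totals per library and their ranges are given with the results, and low totals limit the precision of low counts.

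Same-numbered set 1 knockdown libraries deviated together (r = 0.792 to 0.825 for the 6 pairs of groups), so the replicate number was a block there. Alternatives were edgeR 4.0.16 (quasi-likelihood), TMM size factors, a mean count of at least 10, effective length offsets, the replicate block, controls of both MDA-MB-231 sets and leaving out each library. A local dispersion trend was added after the data were seen. The scripts were tested on simulated data. Values in every library are given for ATF4, DDIT3, XBP1, HSPA5 and ASNS, and for up to 4 members per direction with the largest called changes, a mean normalized count of at least 50 and groups that did not overlap (overlap was not asked for interactions and within set 1). Other members named were chosen after their values were seen. The members and lists were chosen with earlier results of these data known.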

Additional observations from a re-analysis of the deposited data

Results flagged for a closer look

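SLC3A2 was flagged because the effect of STAT3i differed between TAM and ETH ER-Src cells by an interaction term of 1.18 on the log2 scale (DESeq2 adjusted p = 8.28e-07), with TAM STAT3i libraries above and ETH STAT3i libraries overlapping their controls.

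A further 7 results were flagged because all libraries of a knockdown lay on opposite sides of their controls in the 2 cell lines, and none of these differences was tested. SLC1A5 changed by 0.48 with YAPi and 0.54 with TAZi in ETH ER-Src cells and by -0.84 and -1.81 in MDA-MB-231 set 1. SYVN1, which shares exons with FAU, changed by 0.57 and 0.52 in ETH ER-Src cells and by -1.93 and -2.04 in set 1. With JUNBi, DNAJC3 changed by 0.77 in TAM ER-Src cells and by -0.20 in set 2, and HSPA5 by -0.81 in ETH ER-Src cells and by 0.33 in set 2. With STAT3i, SLC3A2 changed by 1.23 in TAM ER-Src cells and by -0.28 in set 2. Library type differs between the knockdowns and controls of set 1, and its part in these values was not tested.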

How the results depend on the processing

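Of 2319 values of named genes under other settings, 1984 kept their side of the threshold, 323 no longer passed and 12 newly passed. Among values that passed in the main fit or under the other setting, 0 reversed direction. For values that passed in neither, a kept direction was not required, and values near 0 can differ in sign. The cause of the changed counts below was not tested.

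Counts of members called moved by more than 1.5 times as follows. The share of all genes passing in the same fits is not given, so the counts in this section describe the settings and not the members. With edgeR they were 5 in TAM YAPi, 1 in TAM TAZi, 3 in TAM JUNBi, 0 in ETH JUNBi and 0 for the STAT3i interaction. With effective length offsets they were 5 for TAM against ETH, 6 in ETH TAZi, 0 in ETH JUNBi, 1 for the YAPi interaction and, within the set 1 knockdowns, 4, 4, 3 and 3 for YAPi, TAZi, YAPi_TAZi and TEADi. With a local dispersion trend they were 7 in TAM TAZi, 5 in TAM STAT3i, 11 in TAM JUNBi, 5 in ETH TAZi, 5 in ETH JUNBi, 2 and 1 for the STAT3i and JUNBi interactions and 1 in set 2 JUNBi. TMM size factors gave 1 for the TAZi and 1 for the JUNBi interaction, and a mean count of at least 10 gave 1 in set 2 JUNBi. Controls of both sets gave 5, 4, 7 and 7 in set 1 YAPi, TAZi, YAPi_TAZi and TEADi.

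Counts in fits with a replicate block were 5 for TAM against ETH, 3 in TAM YAPi, 1 in TAM TAZi, 1, 2 and 1 for the TAZi, STAT3i and JUNBi interactions and 17 for set 1 TAZi against Ctrli. Without the block in set 1 they were 1, 2 and 3 for YAPi, YAPi_TAZi and TEADi against the other knockdowns. Correlations of same-numbered libraries were -0.054 to 0.410 in ER-Src comparisons of 2 groups, -0.211 to 0.608 in the YAPi, TAZi and STAT3i interactions and -0.045 to -0.029 in set 1 against Ctrli, so those numbers were not taken to pair libraries. In the JUNBi interaction all 6 pairs of groups lay above 0.1, at 0.105 to 0.527, and the block moved HSPA5 from an adjusted p of 0.0111 to 0.000408. For set 2 alone, no paired analysis was possible because its knockdowns and controls share no replicate numbers.

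Leaving out 1 library, where the lone library of a group was assumed to vary like the others, gave 2 to 2 for TAM against ETH, 3 to 6 in TAM YAPi, 1 to 2 in TAM TAZi, 1 to 2 in TAM STAT3i, 1 to 3 in TAM JUNBi, 5 to 8 in ETH YAPi, 1 to 2 in ETH TAZi, 0 to 2 in ETH STAT3i and 0 to 11 in ETH JUNBi. Interactions gave 0 to 0 (YAPi), 0 to 5 (TAZi), 1 to 2 (STAT3i) and 0 to 4 (JUNBi). Set 1 against Ctrli gave 8 to 24, 9 to 24, 14 to 26 and 13 to 27, within the knockdowns 1 to 5, 3 to 7, 3 to 6 and 2 to 7, and set 2 0 to 1 (JUNBi) and 0 to 2 (STAT3i). SLC7A5 and SLC3A2 with TAM, PHGDH, SHMT2 and HSPA5 with YAPi in both states, STC2 and AARS1 in ETH YAPi, HSPA5 in ETH TAZi and SLC3A2 in TAM STAT3i held under each setting run and without any single library. The other ER-Src calls that were followed through these fits were lost when at least 1 library was left out or under at least 1 setting. Not followed were the calls on SLC38A2 with TAM, TRIB3 and PDIA4 in ETH YAPi, and HSP90B1 and PDIA4 in TAM YAPi.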
